A study of Mus musculus with 96 samples.

Results

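The enzymes of triglyceride synthesis were followed as 9 genes across hepatocytes and liver macrophages, 4 genotypes and 4 times of day. The members were Gpam, Agpat2, Agpat3, Lpin1, Lpin2, Dgat1, Dgat2, Mogat1 and Pnpla3. They were picked by gene symbol, with earlier results of these data known, and make up 9 of the 25095 symbols in each table. Where a symbol had several transcripts, the one of highest mean over the libraries stands for the gene, and all 9 were found in all 4 tables. Levels are in RPKTM, which is RPKM (reads per kilobase of transcript and per 1e6 reads) multiplied by 10, so levels of different genes are compared per length.

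Bulk RNA-Seq covered 96 libraries, with 3 libraries in each of 32 groups of genotype, cell type and zeitgeber time (ZT, hours after lights on, lights off at ZT12). Every library is labelled as coming from male C57BL/6J mice after 4 weeks on a diet high in fat and sucrose (D12492i), and the methods describe injection of an adeno-associated virus at 8 weeks of age. Control mice were given AAV-TBG-GFP, and which floxed alleles they carried is not given in the sources used here. RevDKO mice (labelled ReverbhDKO) carried floxed alleles of Nr1d1 and Nr1d2, the genes of REV-ERBα and REV-ERBβ, and RevScapTKO mice (labelled Reverb/ScaphTKO) also carried floxed Scap, both with AAV-TBG-CRE. ScapKO (labelled ScaphKO) stands for loss of Scap alone, and its virus is not given separately in the sources used here. The TBG promoter is active in hepatocytes, so the macrophages of every genotype were cells in which no deletion was directed. Control, RevDKO and RevScapTKO were normalized together in 1 table per cell type (36 libraries each) and ScapKO in tables of its own (12 libraries each), so ScapKO levels were not compared with those of the other genotypes. The study calls the replicates biological but the labels tie no library to an animal, so p-values measure the spread between these libraries.

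Triglyceride is built on glycerol 3-phosphate. Gpam adds the first fatty acid in mitochondria, Agpat2 and Agpat3 belong to the family that adds the second, the lipins Lpin1 and Lpin2 remove the phosphate to leave diacylglycerol, and Dgat1 and Dgat2 add the last fatty acid. Mogat1 makes diacylglycerol from monoacylglycerol, a route that bypasses the phosphate. Pnpla3 encodes a lipid droplet protein with lipase and acyltransferase activities that is known for its link to fatty liver in people. SREBP-1c, encoded by Srebf1, is a transcription factor of fatty acid and triglyceride synthesis that must be escorted by SCAP before it is cleaved and enters the nucleus. REV-ERBs are clock repressors that bind an AGGTCA core and keep many genes of lipid metabolism low in part of the day.

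The labels were checked before the comparisons. Scap was lower in RevScapTKO hepatocytes than in RevDKO hepatocytes by a log2 difference of -1.40 (SE 0.14, limma adjusted p = 9.77e-09), with 82.8 to 299 RPKTM against 321 to 733 RPKTM. Nr1d1 went against the label, being higher in RevDKO than in Control hepatocytes by 1.55 (SE 0.25, limma adjusted p = 8.87e-05), while Arntl, a gene that REV-ERBs repress, was higher by 1.83 (SE 0.13, limma adjusted p = 1.60e-11). Nr1d2, the other deleted gene, had a difference of 0.62 (SE 0.19) that did not pass (limma adjusted p = 0.0626). The study itself reports a marked reduction of both genes in hepatocytes. The deposited values cover whole transcripts and so do not check a deleted exon, so the names RevDKO and RevScapTKO stand here for what the labels say. The ScapKO libraries titled as hepatocytes carry liver macrophage in their cell type field. The titles were followed, and the 10 hepatocyte markers summed to 12% of all values in their median library. The 10 macrophage markers summed to a median of 841 RPKTM in Control, 1044 RPKTM in RevDKO and 2816 RPKTM in RevScapTKO hepatocyte libraries, with all 10 above 5 RPKTM in at least 1 library of each genotype, and stellate cell markers to 739, 1048 and 2291 RPKTM. The macrophage markers also differed by time, from 231 to 649 RPKTM at ZT4 to 2089 to 2985 RPKTM at ZT22 in Control, from 452 to 769 RPKTM to 1481 to 2337 RPKTM in RevDKO and from 957 to 2446 RPKTM to 3675 to 5983 RPKTM in RevScapTKO. Median sums of the hepatocyte markers were 616937 RPKTM in Control, 556766 RPKTM in RevDKO and 579177 RPKTM in RevScapTKO. They stood apart at 1072220 to 1344000 RPKTM in 5 libraries high in Alb, Control ZT22 replicate 2 and RevScapTKO ZT10 replicate 3, ZT16 replicate 3 and ZT22 replicates 1 and 3, against at most 702715 RPKTM in the others. In 3 macrophage libraries, Control ZT16 replicate 1, Control ZT22 replicate 1 and RevScapTKO ZT22 replicate 3, hepatocyte markers took 14.2%, 41.2% and 14.2% of all values, against at most 2.18% in the others. All libraries of a table hold the same set of values. The highest value alone was 10.8% of the sum in these hepatocyte libraries and 27.5% in these macrophage libraries. Such sums and shares thus jump with the rank of a single transcript and do not measure the amount of hepatocyte RNA. Control macrophage ZT22 replicate 1 also held the highest sum of macrophage markers (37315 RPKTM) among macrophage libraries of the 3 genotypes. Of the ScapKO libraries, ZT22 replicate 2 of each cell type stood apart, as described with their values. In ScapKO hepatocyte ZT22 replicate 1 the hepatocyte markers summed to 406002 RPKTM, against 1235760 RPKTM or more in the others, and hepatocyte ZT16 replicate 3 held 129.7 RPKTM of Xist beside male-specific transcripts.

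The 250 bases before the transcript start are shown for Gpam, Pnpla3 and Lpin1, the members described in most detail. Sequences were read from the reference genome of the files' build, mm9, on the strand of the gene, and capitals mark matches to AGGTCA, the core of the REV-ERB response element, or to CCAAT, bound by NF-Y, here as ATTGG on the other strand.
Gpam, longer transcript (chr19:55201729-55201978, minus strand): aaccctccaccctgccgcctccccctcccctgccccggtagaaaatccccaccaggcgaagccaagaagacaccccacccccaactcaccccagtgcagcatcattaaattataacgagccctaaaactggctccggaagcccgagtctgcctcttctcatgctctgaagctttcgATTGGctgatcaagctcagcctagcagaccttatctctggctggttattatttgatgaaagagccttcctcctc
Gpam, shorter transcript (chr19:55173968-55174217, minus strand, inside the span of the longer one): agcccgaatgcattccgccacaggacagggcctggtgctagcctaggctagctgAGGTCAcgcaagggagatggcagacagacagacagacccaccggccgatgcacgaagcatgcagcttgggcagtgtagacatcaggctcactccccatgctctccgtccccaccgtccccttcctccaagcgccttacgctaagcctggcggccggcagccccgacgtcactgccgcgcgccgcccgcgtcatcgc
Pnpla3 (chr15:83997996-83998245, plus strand): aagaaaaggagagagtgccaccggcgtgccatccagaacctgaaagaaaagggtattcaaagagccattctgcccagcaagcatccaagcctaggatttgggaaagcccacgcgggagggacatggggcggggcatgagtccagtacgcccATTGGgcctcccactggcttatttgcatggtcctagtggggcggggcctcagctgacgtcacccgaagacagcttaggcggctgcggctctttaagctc
Lpin1, longest transcript (chr12:16617773-16618022, minus strand): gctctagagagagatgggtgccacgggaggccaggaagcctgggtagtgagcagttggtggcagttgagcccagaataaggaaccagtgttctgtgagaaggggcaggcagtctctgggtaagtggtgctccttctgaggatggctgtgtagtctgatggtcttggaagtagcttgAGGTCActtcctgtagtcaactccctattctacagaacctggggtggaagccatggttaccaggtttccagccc
Lpin1, start shared by its other 3 transcripts (chr12:16596577-16596826, minus strand): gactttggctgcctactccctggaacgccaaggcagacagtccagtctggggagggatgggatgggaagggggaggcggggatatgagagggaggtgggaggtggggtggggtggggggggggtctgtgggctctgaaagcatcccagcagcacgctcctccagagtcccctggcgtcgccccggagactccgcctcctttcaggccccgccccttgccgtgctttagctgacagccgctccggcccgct
The longer Gpam window held ATTGG 74 bases before the start, the shorter one AGGTCA 196 bases before it, Pnpla3 ATTGG at 99 bases and the longest Lpin1 transcript AGGTCA at 74 bases. The other Lpin1 start, whose 3 transcripts had nearly the same level (means of 1150 to 1175 RPKTM over the hepatocyte table, against 1185 RPKTM), held no match to any of the motifs searched. Both strands of all member windows were searched. Among 13310 genes tested, each by the window of its transcript of highest mean, 36% held CCAAT and 11.3% AGGTCA, so these matches are frequent in windows of this length. The members were searched at every transcript start, so these shares are not like for like. The AGGTCA of Gpam lies before its transcript of second highest mean. The sterol response element, spelled TCACNCCAC, was in 0.962% of the windows and in none of the members'. The E-box CACGTG was in 8.11%, and among the members before 1 Lpin2 start, that of its transcript of second highest mean. A match is a description of letters, not a binding site. Only exact spellings were searched, so a window without a match may hold a variant of the motif.

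In Control hepatocytes the enzymes of the glycerol phosphate route other than Dgat1 were abundant, and Pnpla3 and Mogat1 were low. The median over the 12 Control libraries was 2158 RPKTM for Gpam (range 1237 to 4509), 1543 RPKTM for Dgat2 (1034 to 1894), 1193 RPKTM for Lpin2 (718 to 1615) and 552 RPKTM for Agpat2 (243 to 856). Lpin1 followed at 483 RPKTM (227 to 3685) and Agpat3 at 480 RPKTM (369 to 731). Dgat1 stood at 69.3 RPKTM (47.3 to 84.0), Pnpla3 at 20.4 RPKTM (0 to 79.3) and Mogat1 at 4.36 RPKTM (0.989 to 6.62). Neighbours in this order overlapped between libraries except at 1 step, the drop from Agpat3 to Dgat1. Transcripts of Gpam, Lpin1 and Lpin2 that share most exons had nearly the same level, so their isoforms could not be told apart.

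**Figure D1:**
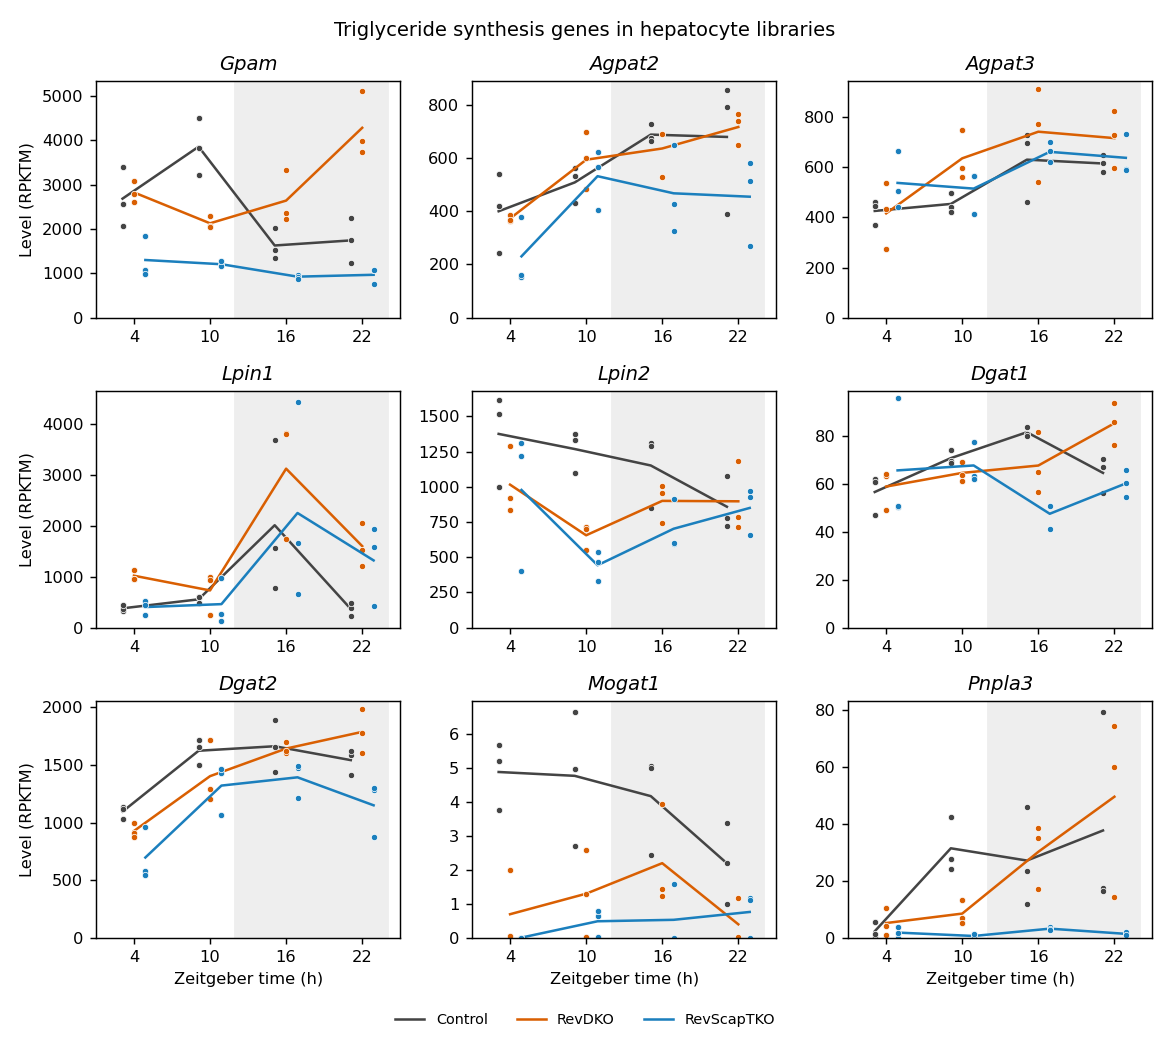
Level in RPKTM (y axis, from 0) of the 9 members against zeitgeber time in hours (x axis) in hepatocyte libraries of Control, RevDKO and RevScapTKO. Points are single libraries, 3 per group and shifted sideways by genotype, lines join group means, and grey marks the dark phase. Gpam peaked at ZT10 in Control and at ZT22 in RevDKO and was low throughout in RevScapTKO, and Pnpla3 stayed below 5 RPKTM in RevScapTKO.

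Gpam, the entry enzyme, changed its time of day in RevDKO hepatocytes, while its mean over the day differed by 0.32 (SE 0.12, limma adjusted p = 0.125). At ZT10 the Control libraries held 3227, 3829 and 4509 RPKTM and the RevDKO libraries 2033, 2064 and 2282 RPKTM. At ZT22 the order was the opposite, with 1237, 1743 and 2241 RPKTM in Control and 3739, 3986 and 5118 RPKTM in RevDKO. At ZT16 Control held 1333, 1522 and 2021 RPKTM and RevDKO 2234, 2348 and 3334 RPKTM. The groups did not overlap at these 3 times, RevDKO being low at ZT10 and high at ZT16 and ZT22, whereas at ZT4 they overlapped (2075 to 3408 RPKTM in Control, 2618 to 3076 RPKTM in RevDKO). The change in the 24 h rhythm passed the test (limma F test, adjusted p = 0.00106), with peak to trough spans of 1.38 in Control and 1.0 in RevDKO on the log2 scale. It was 1 of 9 members with a changed rhythm, against 0.203% of all genes tested, which was 27 of 13326. With the macrophage markers as a covariate the limma adjusted p was 0.00282, and over all alternatives it lay between 0.000223 and 0.00968. Tested by time, the rise at ZT22 (1.33, SE 0.23, adjusted p = 0.00316) was the 1 call among 9 members, against 0.488% of all genes. It was lost without Control ZT22 replicate 1 (adjusted p = 0.0585). The values at ZT10 (-0.85, SE 0.23, adjusted p = 0.0701) and ZT16 (0.70, SE 0.23, adjusted p = 0.404) did not pass. No member passed at ZT4, ZT10 or ZT16, where 0.585% and 0.3% of all genes did at ZT4 and ZT16, and 0.69% were called higher and 0.495% lower at ZT10. At an unadjusted p under 0.05 by limma there were 2, 5 and 1 members at these times, against 1270, 1090 and 756 of 13326 genes.

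Averaged over the day, 2 of 9 members were called between RevDKO and Control hepatocytes, where 4.43% of all genes tested were. Of these Mogat1 had to differ to be tested, which leaves Lpin1 as 1 of the other 8. Lpin1, a phosphatase that also acts as a transcriptional coactivator, rose by 1.15 on the log2(RPKTM + 1) scale (SE 0.32, limma adjusted p = 0.0290). Mogat1 fell by 1.35 (SE 0.28, limma adjusted p = 0.00202), but it passed the filter on low values only through 4 Control libraries above 5 RPKTM. The median difference of the 9 was 0.01, and that of all genes -0.0052. Lpin1 levels at ZT4 were 318, 370 and 446 RPKTM in Control and 958, 963 and 1138 RPKTM in RevDKO. At ZT22 they were 227, 383 and 487 RPKTM in Control and 1220, 1532 and 2054 RPKTM in RevDKO. RevDKO libraries were above Control libraries without overlap at these times, by a ratio of means of 2.70 and 4.38, and the genotypes overlapped at ZT10 and ZT16, when Control peaked (783 to 3685 RPKTM at ZT16).

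The Lpin1 call rested on single libraries. It was lost without any 1 of 8 libraries, namely Control ZT10 replicate 3, Control ZT16 replicate 3, Control ZT22 replicate 1, RevDKO ZT10 replicates 2 and 3, RevDKO ZT16 replicates 1 and 2 and RevDKO ZT22 replicate 3 (adjusted p 0.0524 to 0.0680), and with no filter on low values (adjusted p = 0.0812). Lpin2, the other lipin, had a difference of -0.42 (SE 0.16, adjusted p = 0.136), with 1096 to 1377 RPKTM in Control against 552 to 713 RPKTM in RevDKO at ZT10. Without RevScapTKO ZT4 replicate 1, which shares in the estimate of the spread, Lpin2 passed (adjusted p = 0.0377). Agpat2, Agpat3, Dgat1, Dgat2 and Pnpla3 had differences between -0.07 and 0.21 and did not pass.

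In RevScapTKO against RevDKO hepatocytes 5 of 9 members were lower and none higher, in a comparison in which 26.2% of all genes were called and 12.7% were called lower. Of these Pnpla3 was tested only through the genotypes in which it was high, which leaves 4 of the other 8. With the macrophage markers as a covariate 2 of the 5 were called, Gpam and Pnpla3. The share of all genes called in that fit is not given here, so the loss of Agpat2, Dgat2 and Lpin1 is not read as particular to them. The median difference was -0.46 over the 9 members and -0.03 over all genes. Gpam differed by -1.41 (SE 0.12, limma adjusted p = 6.43e-11) and Pnpla3 by -2.66 (SE 0.35, adjusted p = 1.08e-06). Agpat2 differed by -0.55 (SE 0.16, adjusted p = 0.0114), Dgat2 by -0.36 (SE 0.09, adjusted p = 0.00546) and Lpin1 by -0.90 (SE 0.32, adjusted p = 0.0343). Agpat3, Lpin2, Dgat1 and Mogat1 had differences of -0.05, -0.31, -0.21 and -0.46 and did not pass.

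All 12 RevScapTKO libraries lay below all 12 RevDKO libraries for Gpam. RevScapTKO held 747 to 1841 RPKTM with a median of 1069 RPKTM, and RevDKO 2033 to 5118 RPKTM with a median of 2697 RPKTM, a ratio of means of 0.370. By time, RevScapTKO held 990, 1064 and 1841 RPKTM at ZT4, 1160, 1175 and 1273 RPKTM at ZT10, 880, 916 and 971 RPKTM at ZT16 and 747, 1074 and 1074 RPKTM at ZT22. The ratio to RevDKO was 0.460, 0.566, 0.350 and 0.225 in that order, smallest at ZT22, when RevDKO peaked. Gpam passed the test at ZT4 (-1.18, SE 0.23), ZT16 (-1.49, SE 0.23) and ZT22 (-2.16, SE 0.23), and not at ZT10 (-0.82, SE 0.23, adjusted p = 0.0861). A change of rhythm between these genotypes was called by limma for 0% of all genes and for no member, with 2 of 9 members and 674 of all genes at an unadjusted p under 0.05, among them Gpam (adjusted p = 0.799 by limma).

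Pnpla3 was near its floor in RevScapTKO. None of the 12 RevScapTKO libraries exceeded 5 RPKTM (0 to 3.79, median 1.48), compared with 10 of 12 RevDKO libraries (0.863 to 74.4, median 13.9) and 10 of 12 Control libraries (0 to 79.3, median 20.4). At ZT22 the RevDKO libraries held 14.4, 60.0 and 74.4 RPKTM and the RevScapTKO libraries 1.01, 1.09 and 1.85 RPKTM. The genotypes did not overlap at ZT10, ZT16 and ZT22, and at ZT4, when Pnpla3 was low everywhere (0.863 to 10.3 RPKTM in RevDKO), they did. Pnpla3 passed the filter on low values through Control and RevDKO libraries alone, so its call against RevScapTKO is read with that in mind. It passed at ZT16 (-2.84, SE 0.69, adjusted p = 0.0237) and ZT22 (-4.18, SE 0.69, adjusted p = 0.000295). The ZT16 call was lost without RevDKO ZT16 replicate 1 or 2 or RevScapTKO ZT16 replicate 2 or 3 (adjusted p 0.0909 to 0.145). With Gpam, members passing by time numbered 1 at ZT4, 0 at ZT10, 2 at ZT16 and 2 at ZT22, against 9.28%, 0.908%, 1.37% and 2.35% of all genes. At an unadjusted p under 0.05 by limma there were 4, 2, 3 and 5 members, against 3506, 1691, 1607 and 2141 of 13326 genes.

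Dgat2, the main hepatic enzyme of the last step, held 542 to 1495 RPKTM in RevScapTKO (median 1244) and 875 to 1983 RPKTM in RevDKO (median 1604). Agpat2, the acyltransferase whose loss causes a lipodystrophy in people, held 151 to 650 RPKTM (median 417) and 365 to 766 RPKTM (median 626). For both genes the groups overlapped over the day and parted at ZT22, for Dgat2 also at ZT16. At ZT22 Dgat2 read 872, 1280 and 1297 RPKTM in RevScapTKO and 1602, 1778 and 1983 RPKTM in RevDKO. With the level of the macrophage markers, higher in RevScapTKO libraries, as a covariate, the calls were Gpam (-1.30, adjusted p = 7.82e-07) and Pnpla3 (-2.45, adjusted p = 0.00159). Agpat2 (-0.14, adjusted p = 0.853), Dgat2 (-0.24, adjusted p = 0.450) and Lpin1 (-0.45, adjusted p = 0.744) did not pass. Without the 5 libraries high in Alb all 3 had larger differences, Agpat2 at -0.70, Dgat2 at -0.49 and Lpin1 at -1.27. That fit left RevScapTKO at ZT22 with replicate 2 alone, so only the sizes are given. The part of other cells in these differences was not tested. In bulk libraries fewer cells of a type and less RNA per cell cannot be told apart.

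Lpin1 in this comparison also rested on single libraries. Its call was lost without any 1 of 11 libraries, namely RevDKO ZT4 replicate 1, RevDKO ZT10 replicates 2 and 3, RevDKO ZT16 replicates 1 and 2, RevDKO ZT22 replicate 3, RevScapTKO ZT4 replicate 1, RevScapTKO ZT10 replicates 1 and 2, RevScapTKO ZT16 replicate 3 and RevScapTKO ZT22 replicate 2 (adjusted p 0.0515 to 0.0853). The RevScapTKO libraries ranged from 130 to 4435 RPKTM and the RevDKO libraries from 253 to 3829 RPKTM. They parted at ZT4, with 253, 444 and 513 RPKTM in RevScapTKO against 958, 963 and 1138 RPKTM in RevDKO. Dgat1, with a difference of -0.21 (SE 0.10, adjusted p = 0.122), passed without RevScapTKO ZT4 replicate 2 (adjusted p = 0.0157), the library in which it stood at 96.2 RPKTM against 50.2 and 50.8 RPKTM in the other two.

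Set against Control, RevScapTKO hepatocytes had 6 of 9 members lower and none higher, where 35.9% of all genes were called and 18.7% were called lower. Mogat1 and Pnpla3 were tested only through the genotypes in which they were high, which leaves 4 of the other 7. This comparison shares its RevScapTKO libraries with the one before. Gpam was lower by a log2 difference of -1.09 (SE 0.12, limma adjusted p = 1.25e-08), with 10 of 12 libraries below every Control library and a ratio of means of 0.443. Pnpla3 differed by -2.69 (SE 0.35), Lpin2 by -0.73 (SE 0.16), Agpat2 by -0.50 (SE 0.16), Dgat2 by -0.43 (SE 0.09) and Mogat1 by -1.80 (SE 0.28), the last through Control libraries alone. Lpin2 libraries held 328, 465 and 535 RPKTM at ZT10 in RevScapTKO and 1096, 1330 and 1377 RPKTM in Control, without overlap. Lpin1 had a difference of 0.25 (SE 0.32, adjusted p = 0.573), which was -0.10 without the libraries high in Alb, and Agpat3 of 0.16 (SE 0.11, adjusted p = 0.264). With the macrophage markers as a covariate, Agpat2 (-0.05, adjusted p = 0.928) and Dgat2 (-0.30, adjusted p = 0.200) were lost and Lpin2 was called (-0.83, adjusted p = 0.0193). Dgat1 (-0.20, adjusted p = 0.121) passed without RevScapTKO ZT4 replicate 2 (adjusted p = 0.0140).

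**Figure D2:**
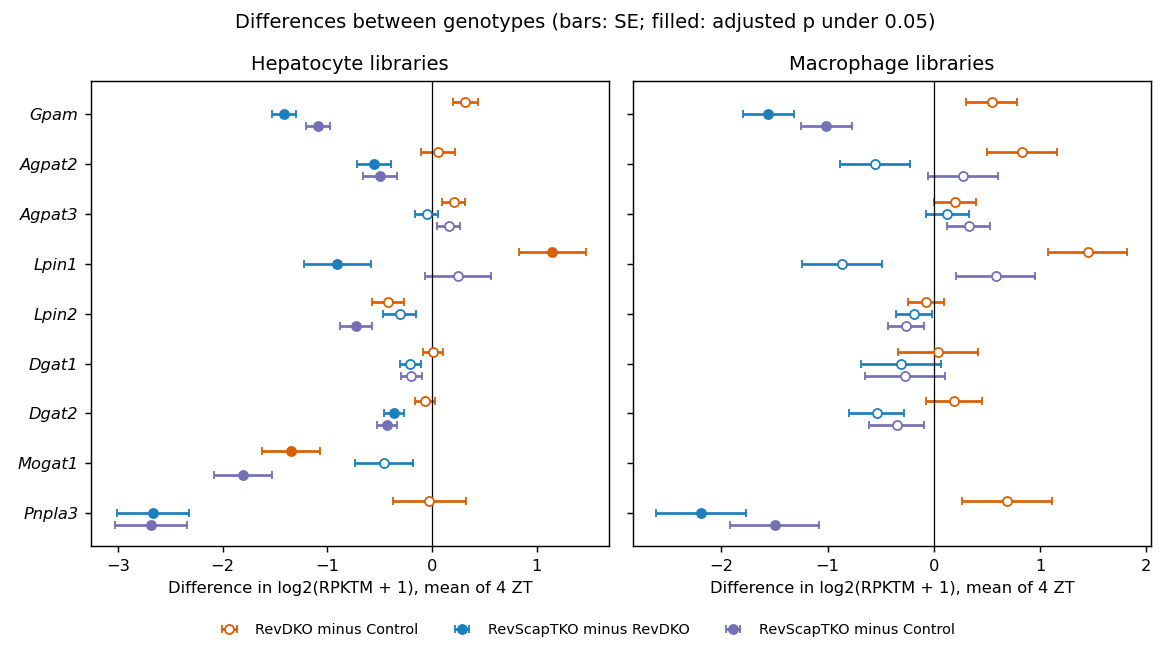
Difference between genotypes in log2(RPKTM + 1), averaged over 4 ZT (x axis), for each member (y axis) in hepatocyte libraries (left) and macrophage libraries (right), with bars of 1 SE from limma. Filled points passed an adjusted p under 0.05. Gpam and Pnpla3 were lower in RevScapTKO than in RevDKO in both cell types, and Mogat1 was not tested in macrophages.

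Regulators of the pathway were read beside the members. Srebf1 was lower in RevScapTKO than in RevDKO hepatocytes by a log2 difference of -4.07 (SE 0.19, limma adjusted p = 2.61e-17), from a median of 2072 RPKTM to 93.0 RPKTM. Srebf2, which encodes the SREBP of cholesterol synthesis, differed by -1.43 (SE 0.14, adjusted p = 3.47e-09). Mlxipl, which encodes the carbohydrate sensor ChREBP, and Nr1h3, which encodes the sterol receptor LXRα, had differences of -0.15 (adjusted p = 0.526) and 0.05 (adjusted p = 0.739). In RevDKO against Control, Insig2, which retains SCAP in the endoplasmic reticulum, rose by 0.71 (SE 0.13, adjusted p = 0.000521) and Pparg fell by 1.03 (SE 0.25, adjusted p = 0.0104). Mean Srebf1 levels in Control were 1718, 3956, 1956 and 1910 RPKTM at ZT4, ZT10, ZT16 and ZT22 and in RevDKO 1138, 1876, 2445 and 2795 RPKTM. Their highest mean stood at ZT10 in Control and at ZT22 in RevDKO, but the change in the Srebf1 rhythm did not pass (limma adjusted p = 0.575).

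Other glycerolipid synthesis genes, a list of 25 of which 23 passed the filter in hepatocytes, had calls in every comparison. Of all genes 4.43% were called in RevDKO against Control, 26.2% in RevScapTKO against RevDKO and 35.9% in RevScapTKO against Control. Among the 23 the calls numbered 3, 7 and 10 in that order. Called lower were 12.7% and 18.7% of all genes in the last 2. In RevDKO against Control 3 of 23 were called, all lower: Gpat3, a microsomal isoenzyme of the first step, at -1.66 (SE 0.25), Agpat1, of the second step, at -0.67 (SE 0.14) and Gpd1, which makes glycerol 3-phosphate, at -0.48 (SE 0.14). In RevScapTKO against RevDKO 5 of 23 were lower and 2 higher. The lower ones were the acyl-CoA synthetases Acsl3 (-3.72, SE 0.17), Acsl5 (-1.42, SE 0.12), Acsl4 (-1.0, SE 0.15) and Acsl1 (-0.36, SE 0.13), and Gpat4 (-1.05, SE 0.20), another microsomal isoenzyme of the first step. Gpat3 (1.5, SE 0.25) and the lipid phosphatase Plpp2 (0.75, SE 0.16) were higher, so Gpat3 moved opposite to Gpam and Gpat4 here. In RevScapTKO against Control 8 were lower and 2 higher, Acsl3 (-3.83), Acsl5 (-1.07), Gpat4 (-1.0), Acsl4 (-0.97) and the higher Plpp1 (0.80) differing most. Medians of the 23 were 0.03, -0.09 and -0.11 in the order given. With the macrophage markers as a covariate 3 of 23 were called in each of the last 2 comparisons, Acsl3, Acsl5 and Acsl4. The share of all genes called in that fit is not given here. Without RevScapTKO ZT4 replicate 1 the count against RevDKO was 11.

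In the macrophage libraries the members were lower, and read against hepatocyte RNA. The Control macrophage median was 12.7% of the hepatocyte median for Gpam, 10.6% for Dgat2, 8.01% for Agpat2, 14.1% for Lpin2, 22.5% for Agpat3, 26.1% for Lpin1, 25.7% for Dgat1 and 22.4% for Pnpla3. The 10 hepatocyte markers stood at 15.8% and the 10 macrophage markers at 1980% of their hepatocyte library level, across tables that were normalized separately. Gpam, Dgat2, Agpat2 and Lpin2 thus lay below the share of hepatocyte markers, and the part of hepatocyte RNA in their macrophage levels was not tested. The macrophage markers differed by genotype in the macrophage libraries. Their median sum was 16661 RPKTM in Control (3025 to 37315), 8584 RPKTM in RevDKO (3627 to 27998) and 9245 RPKTM in RevScapTKO (4541 to 29604). Their part in the differences between genotypes was not tested. Mogat1 exceeded 5 RPKTM in 1 of 36 libraries and was not tested, which leaves 8 members.

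Macrophages from RevScapTKO livers had 2 of 8 members lower than those from RevDKO livers, where 3% of all genes were called and 1.78% were called lower. Pnpla3 passed the filter through 6 Control and 9 RevDKO libraries, with 1 RevScapTKO library above 5 RPKTM, so it was tested through the genotypes in which it was high, which leaves Gpam as 1 of the other 7. Gpam fell by 1.56 (SE 0.24, limma adjusted p = 5.92e-05), from a RevDKO range of 191 to 597 RPKTM to 60.3 to 226 RPKTM, and the groups did not overlap at any ZT. At ZT22 the RevDKO libraries held 449, 478 and 597 RPKTM and the RevScapTKO libraries 61.6, 104 and 109 RPKTM. Pnpla3 fell by 2.19 (SE 0.42, adjusted p = 0.00129), from a RevDKO median of 10.8 RPKTM (0 to 21.9) to 0.817 RPKTM (0 to 5.88). Both were called in every alternative run, including a covariate for the hepatocyte markers (Gpam -1.12, adjusted p = 0.00484, and Pnpla3 -1.76, adjusted p = 0.0143). This covariate follows the level of the hepatocyte markers, and both genes were also lower in RevScapTKO hepatocytes, so it cannot separate hepatocyte from macrophage RNA. The Gpam median was 13.8% of the hepatocyte median in RevDKO and 11.7% in RevScapTKO, beside 15.4% and 17.2% for the hepatocyte markers. Pnpla3, low in both cell types, stood at 77.8% and 55.1%, above the share of those markers. The part of hepatocyte RNA in these differences was not tested. Lpin1 (-0.87, adjusted p = 0.197) and Dgat2 (-0.54, adjusted p = 0.265) were at an unadjusted p under 0.05 and did not pass. Srebf1 was lower by -3.17 (SE 0.20, adjusted p = 4.08e-13) in the same macrophage libraries, and Scap by -0.54 (SE 0.20, adjusted p = 0.127). The hepatocyte and macrophage differences were fitted in separate tables and were not tested against each other.

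Against Control macrophages the same 2 members were lower in RevScapTKO, where 3.76% of all genes were called and 1.38% were called lower. Gpam differed by -1.01 (SE 0.24, limma adjusted p = 0.0113) and Pnpla3 by -1.50 (SE 0.42, adjusted p = 0.0367). The Gpam groups parted at ZT4, with 276, 293 and 329 RPKTM in Control and 73.7, 154 and 172 RPKTM in RevScapTKO, and at ZT10. The Pnpla3 call was lost without any 1 of 15 libraries, namely Control ZT4 replicates 1 and 2, Control ZT10 replicates 1, 2 and 3, Control ZT16 replicates 1 and 3, Control ZT22 replicate 1, RevScapTKO ZT4 replicates 2 and 3, RevScapTKO ZT10 replicate 2, RevScapTKO ZT16 replicates 1 and 2 and RevScapTKO ZT22 replicates 1 and 2 (adjusted p 0.0502 to 0.0795). It was also lost without the 3 libraries high in hepatocyte markers, in which Gpam read 106, 71.9 and 109 RPKTM.

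No member passed between RevDKO and Control macrophages by limma (0 of 8), where 0.574% of all genes were called. At an unadjusted p under 0.05 there were 3 of 8 members, against 1934 of 13947 genes. Lpin1 had the largest difference, 1.45 (SE 0.38, adjusted p = 0.0690), followed by Agpat2 at 0.83 (SE 0.33, adjusted p = 0.268), Pnpla3 at 0.69 (SE 0.42, adjusted p = 0.466) and Gpam at 0.55 (SE 0.24, adjusted p = 0.310). Lpin1 libraries parted at ZT4 (114, 143 and 172 RPKTM in Control, 355, 386 and 432 RPKTM in RevDKO) and at ZT22 (29.2, 59.9 and 138 RPKTM against 205, 311 and 323 RPKTM), the times at which they parted in hepatocytes. Without any 1 of Control ZT16 replicate 2, Control ZT22 replicate 3, RevScapTKO ZT10 replicates 1 and 3 and RevScapTKO ZT22 replicates 2 and 3, Lpin1 passed (adjusted p 0.0158 to 0.0467), and without Control ZT22 replicate 3 Agpat2 passed as well (adjusted p = 0.0361). Changed rhythms were called by limma for 0% of all genes in both macrophage comparisons (767 genes at an unadjusted p under 0.05 for RevDKO against Control and 498 for RevScapTKO against RevDKO). Gpam was the member at an unadjusted p under 0.05 in the first of these (limma adjusted p = 0.891), its mean being highest at ZT10 in Control and at ZT22 in RevDKO.

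**Figure D3:**
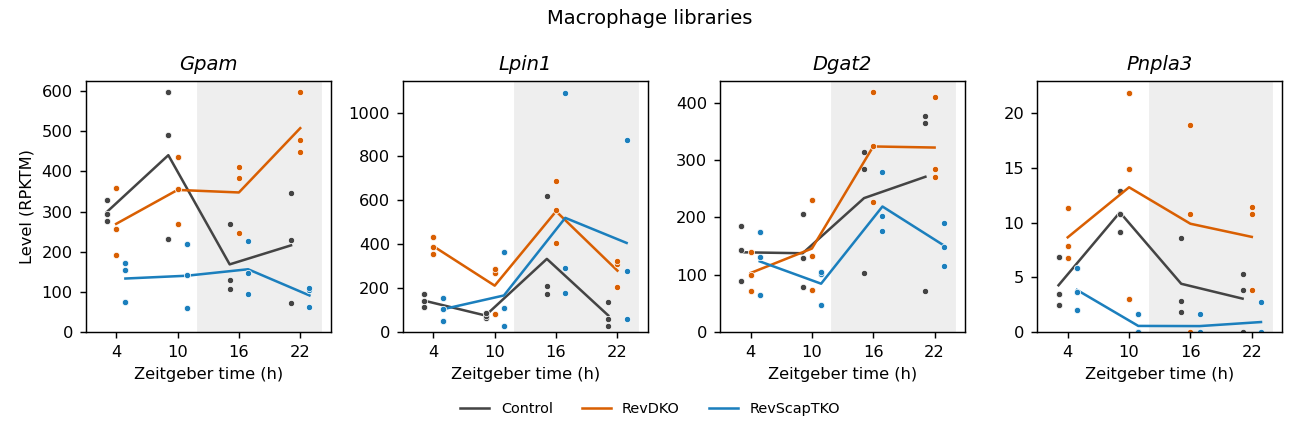
Level in RPKTM (y axis, from 0) of Gpam, Lpin1, Dgat2 and Pnpla3 against zeitgeber time in hours (x axis) in macrophage libraries. Points are single libraries, 3 per group and shifted sideways by genotype, lines join group means, and grey marks the dark phase. Gpam in RevScapTKO ranged from 60.3 to 226 RPKTM and lay below RevDKO at every ZT.

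Of the other glycerolipid genes 24 passed the filter in macrophages. In RevDKO against Control 0 were called by limma, where 0.574% of all genes were. At an unadjusted p under 0.05 there were 5 of the 24, against 1934 of 13947 genes. In RevScapTKO against RevDKO, where 3% of all genes were called, 3 of 24 were lower, Acsl3 (-2.03, SE 0.27), Acsl5 (-1.25, SE 0.19) and Gpat4 (-0.83, SE 0.21). Gpat3 was higher (1.57, SE 0.36). Against Control, where 3.76% of all genes were called, Acsl3 (-1.92, SE 0.27) and Acsl5 (-1.03, SE 0.19) were lower. That count of 2 was 5 without RevDKO ZT10 replicate 2, 4 without RevScapTKO ZT10 replicate 1 and 5 with the hepatocyte markers as a covariate.

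Rhythmic members were called by JTK_CYCLE, following the published procedure. The 12 libraries of a genotype were entered 2 times in a row, and a call needed an adjusted p under 0.05, a best period of 24 h and a ratio of highest to lowest mean above 1.5. In hepatocytes the rhythmic members numbered 5 of 9 for Control, 6 of 8 for RevDKO, 3 of 7 for RevScapTKO and 2 of 7 for ScapKO, against 29%, 29.7%, 20.8% and 19.1% of all genes tested. Gpam was rhythmic in Control (ratio 2.37, peak ZT7) and RevDKO (ratio 2.01, peak ZT22). Lpin1 was rhythmic in Control (ratio 5.50, peak ZT13), RevDKO (ratio 4.28, peak ZT19) and RevScapTKO (ratio 5.59, peak ZT19). Dgat2 was rhythmic in all 4 genotypes with ratios of 1.52 in Control, 1.93 in RevDKO, 2.0 in RevScapTKO and 1.52 in ScapKO, and its lowest mean stood at ZT4 in the first 3. Agpat2 was called in Control, RevDKO and ScapKO, Lpin2 in Control and RevScapTKO, and Agpat3 and Pnpla3 in RevDKO.

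Entering the series 2 times makes p smaller without adding data. Entered once, 2, 3, 1 and 0 members were rhythmic in hepatocytes of Control, RevDKO, RevScapTKO and ScapKO, against 10.9%, 9.18%, 2.91% and 4.71% of all genes. With adjustment over all genes as well, members and all genes called numbered 0 in each. The Control count of 5 was 3 without Control ZT4 replicate 3 or Control ZT16 replicate 2, the RevScapTKO count was 5 without RevScapTKO ZT4 replicate 1, and the ScapKO count was 1 without ScapKO ZT4 replicate 2, ZT10 replicate 2 or ZT22 replicate 1. Macrophage markers in the hepatocyte libraries were higher at ZT22 than at ZT4 in Control, RevDKO and RevScapTKO, and their part in the rhythmic calls was not tested. A call in 1 genotype and not in another is no test of a difference, and the test of changed rhythm passed for Gpam alone.

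In macrophages they numbered 5 of 8 for Control, 2 of 8 for RevDKO, 2 of 7 for RevScapTKO and 3 of 8 for ScapKO, against 20.2%, 28.2%, 15.4% and 21.4% of all genes. Agpat2 was called in every genotype, and Dgat2 in RevDKO, RevScapTKO and ScapKO. Gpam was called in Control (ratio 2.61, peak ZT7) and ScapKO, and Agpat3, Lpin2 and Pnpla3 in Control. Entered once, the counts were 0, 2, 0 and 0, against 2.82%, 5.56%, 2.32% and 3.34% of all genes. Leaving out single libraries moved the Control count from 5 to 3 (Control ZT10 replicate 1 or 3, ZT16 replicate 1 or 2 or ZT22 replicate 2) or 2 (Control ZT10 replicate 2) and the RevDKO count from 2 to 4 (RevDKO ZT10 replicate 1) or 5 (RevDKO ZT16 replicate 2). The ScapKO count of 3 was 0 or 1 without any library but ZT22 replicate 1, without which it was 5. Macrophage markers in the macrophage libraries also differed by time. In RevDKO they summed to 12387 to 27998 RPKTM at ZT4 and 3644 to 6755 RPKTM at ZT22. In Control and RevScapTKO the libraries of these times overlapped. The part of cell content in the rhythmic calls was not tested.

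In ScapKO hepatocytes, read in their own table, Gpam means differed little over the day, by a ratio of highest to lowest of 1.12. Its libraries held 1683, 1745 and 1764 RPKTM at ZT4, 1796, 1962 and 1984 RPKTM at ZT10 and 1745, 1754 and 1857 RPKTM at ZT16. At ZT22 they held 1330 and 1501 RPKTM, and 2987 RPKTM in replicate 2. That library also held 4874 RPKTM of Lpin2, against 620 to 2527 RPKTM in the other 11, and 32.3 RPKTM of Pnpla3, against at most 4.54 RPKTM. Its endothelial markers summed to 5276 RPKTM and its macrophage markers to 3353 RPKTM, the highest of the 12, and the part of these cells in its values was not tested. Dgat2 was the most abundant member at a median of 3369 RPKTM (2158 to 4366), followed by Gpam at 1759 RPKTM, Lpin2 at 1346 RPKTM, Agpat3 at 1294 RPKTM, Agpat2 at 1252 RPKTM and Lpin1 at 1020 RPKTM, and neighbours in this order overlapped. Dgat1 stood at 91.0 RPKTM, and Pnpla3 (median 1.38 RPKTM, 5 of 12 libraries listed at 0) and Mogat1 (median 0.117 RPKTM, 6 of 12 listed at 0) were low.

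In ScapKO macrophages the 2 libraries with the highest sums of hepatocyte markers also held the most Gpam. ZT22 replicate 2 held 1327 RPKTM of Gpam, 1708 RPKTM of Lpin1 and 4001 RPKTM of Lpin2, its macrophage markers summed to 21205 RPKTM, against 81258 to 131880 RPKTM in the others, and its hepatocyte markers to 142384 RPKTM, the highest of the 12. ZT4 replicate 2 held 732 RPKTM of Gpam and 884 RPKTM of Dgat2, and its hepatocyte markers summed to 131158 RPKTM. The other 10 libraries held 130 to 249 RPKTM of Gpam and 69.6 to 339 RPKTM of Dgat2. Lpin2 in ZT22 replicate 2 was above its ScapKO hepatocyte median of 1346 RPKTM, from a table normalized separately. Endothelial markers reached 12621 RPKTM (median 2677) and stellate cell markers 3450 RPKTM (median 522) among the 12 libraries. The part of other cells in these values was not tested. Without ZT22 replicate 2 no member was rhythmic. Pnpla3 had a median of 17.5 RPKTM (2.92 to 38.8), and Mogat1 was listed at 0 in all 12 libraries.

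**Figure D4:**
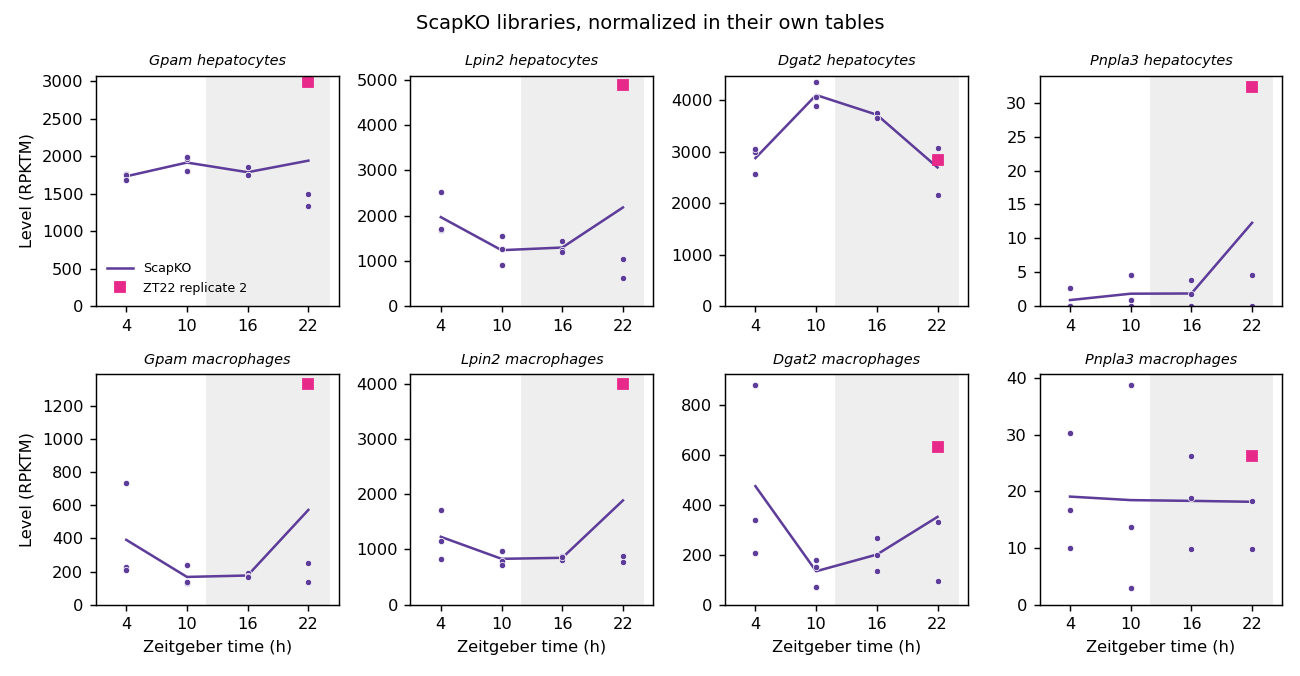
Level in RPKTM (y axis, from 0) of Gpam, Lpin2, Dgat2 and Pnpla3 against zeitgeber time in hours (x axis) in ScapKO hepatocytes (top) and macrophages (bottom), each normalized in its own table. Points are single libraries, 3 per time, lines join means and squares mark ZT22 replicate 2, which held the highest Gpam of each table (2987 and 1327 RPKTM).

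Which genes followed each member was read from Pearson's r of log2(RPKTM + 1) over the 36 hepatocyte libraries of 3 genotypes, as a description, since the libraries share genotypes and times. Gpam was closest to Acsl5 (r = 0.893), Chrna4 (0.885) and Acss2os (0.849). Pnpla3 was closest to Tkt (0.857), of the pentose phosphate pathway, Fasn (0.817), the fatty acid synthase, and Me1 (0.81), which makes NADPH. Lpin1 went with Pptc7 (0.824), E030018B13Rik (0.822) and Gm16573 (0.786), Lpin2 with Glt1d1 (0.744), Tox (0.652) and Baiap2l1 (0.65) and Agpat3 with Pofut2 (0.779), Kif1c (0.771) and Gna11 (0.753). Dgat2 followed Esrra (0.878), Asgr1 (0.872) and Mgll (0.868) and Agpat2 followed Asgr1 (0.887), Sgpp1 (0.884) and Leap2 (0.883). For Dgat1 the closest were Sigirr (0.675), Slc16a11 (0.662) and Gramd4 (0.638), and for Mogat1 Plekhb1 (0.791), Acot4 (0.767) and Acot3 (0.756). Among the members themselves the closest pair was Agpat2 and Dgat2 (r = 0.838), and Gpam and Pnpla3 had r = 0.57.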

How the data were processed

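RNA-Seq of isolated mouse hepatocytes and liver macrophages was analysed. According to the study's methods and the labels, the authors removed ribosomal RNA, made stranded TruSeq libraries, aligned reads to mm9 with STAR and quantified RefSeq transcripts with HOMER. Versions and use of strand in counting are not given in the sources used here. The deposited values are RPKM scaled by 10 (RPKTM), and the authors quantile normalized each of 4 tables (42322 transcripts) so that its libraries hold the same set of values. Depth is therefore unknown, no interval that needs it is given, and a shift of most transcripts would not show. Groups came from the labels, and 0 columns lacked a sample.

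From these values, limma 3.58.1 (R 4.3.3) with a mean-variance trend took log2(RPKTM + 1) per cell type (36 libraries), with 1 mean per genotype and ZT. Differences are on that scale, on which changes of low genes look smaller than they are. Genes needed over 5 RPKTM in 3 libraries (13326 in hepatocytes, 13947 in macrophages). Benjamini-Hochberg adjusted p-values were taken over all of them at a threshold of 0.05. Contrasts compared means over 4 ZT, single ZT, and 24 h cosine and sine terms (F test). JTK_CYCLE used periods of 18 and 24 h and at least 2 libraries above 5 RPKTM. Both programs were tested on simulated data. Python 3.11.15 with pandas 2.3.3 was used for summaries.

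All 9 members were named, beside the 5 most changed of 25 other glycerolipid genes per hepatocyte contrast, a list of 10 regulators and the 3 genes closest to each member. The members and lists were chosen with earlier results of these data known. Marker lists were summed per library. Alternatives were another pseudocount (0.1 or 10), no filter, all transcripts, the second transcript, only the genotypes compared, a replicate block, a covariate for markers of the other cell type, no trend, without libraries high in Alb (over 10%) and leaving out each library; removal of the 3 macrophage libraries high in hepatocyte markers was added after seeing the data. Same-numbered libraries deviated together little (median r 0.0191 in hepatocytes and 0.0829 in macrophages over 198 pairs each), so the main fit had no block. For different numbers the medians were -0.0107 and -0.0399, and single same-numbered pairs reached 0.534 and 0.53. Promoter windows were read by coordinates from the mm9 reference; transcript starts in the tables matched its annotation for 49.8% of transcripts counted from 1 and 5.12% counted from 0.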

Additional observations from a re-analysis of the deposited data

Results flagged for a closer look

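Gpam in hepatocytes was flagged because its daily pattern differed between RevDKO and Control by a test of the difference itself. The limma F test of the 24 h terms gave an adjusted p of 0.00106, and the adjusted p lay between 0.000223 and 0.00968 over the alternatives. RevDKO libraries were below Control libraries in 3 of 3 at ZT10 (ratio of means 0.552) and above them in 3 of 3 at ZT16 (1.62) and ZT22 (2.46). The same limma test in macrophages gave an adjusted p of 0.891.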

How the results depend on the processing

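No called result changed sign. Differences that had not passed did so for 5 members in hepatocytes, namely Agpat2 (3 of 45 alternatives), Dgat1 (7 of 45) and Pnpla3 (10 of 45) for RevDKO against Control, Agpat3 (2 of 45) for RevScapTKO against RevDKO and Lpin1 (1 of 46) for RevScapTKO against Control, and for 3 macrophage differences of Dgat1 and Dgat2. With 1 library left out, counts of calls stayed within 1.5 times in 890 cases and moved in 70, and single-gene calls held in 578 and were lost in 34. Under other settings counts stayed in 198 cases and moved in 44, and single-gene calls held in 148 and were lost in 12. Where no cause is named it was not tested.

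Among the members, the hepatocyte count of 2 for RevDKO against Control was 1 with no filter (Lpin1 lost, more genes being tested), and that of 5 for RevScapTKO against RevDKO was 2 with the marker covariate. In macrophages the count of 0 for RevDKO against Control was 1 (Lpin1) with a pseudocount of 10 or with only the 2 genotypes compared. There the count of 2 for RevScapTKO against Control was 1 (Pnpla3 lost) with a pseudocount of 10, no filter, the marker covariate or without the libraries high in hepatocyte markers. For other glycerolipid genes the marker covariate gave 3 for both hepatocyte contrasts of RevScapTKO and 5 for RevScapTKO against Control in macrophages. Shares of all genes called with the marker covariate are not given here. By time in hepatocytes, fitting only the 2 genotypes compared gave 2 calls at ZT10 (Gpam and Lpin2) and 2 at ZT22 (Gpam and Lpin1) for RevDKO against Control. For RevScapTKO against RevDKO the count at ZT16 was 1 with a pseudocount of 0.1, no filter, the marker covariate or without the libraries high in Alb. Without those libraries RevScapTKO at ZT22 was left with replicate 2 alone, so no count is given for that time. That library held the highest sum of macrophage markers (5983 RPKTM) among the hepatocyte libraries of the 3 genotypes.

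Replicate numbers showed little pairing of the libraries. A replicate block gave 1 macrophage member (Lpin1) for RevDKO against Control, 4 other glycerolipid genes for RevScapTKO against Control in macrophages and 1 member (Pnpla3) at ZT10 for RevScapTKO against RevDKO in hepatocytes, and moved no other count by over 1.5 times.

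For Control, RevDKO, RevScapTKO and ScapKO in that order, rhythmic members with the series entered once numbered 2, 3, 1 and 0 in hepatocytes and 0, 2, 0 and 0 in macrophages. Of all genes 10.9%, 9.18%, 2.91% and 4.71% were called in hepatocytes and 2.82%, 5.56%, 2.32% and 3.34% in macrophages. With adjustment over genes as well, members and all genes called numbered 0 throughout. A limma 24 h regression gave 2, 4, 1 and 0 members in hepatocytes and 0 in macrophages. Its shares of all genes were 8.34%, 4.15%, 0.709% and 1.8%, and 0.055%, 2.59%, 0.0877% and 0%. No minimum ratio gave 7, 7, 5 and 3 members in hepatocytes and 5, 2, 2 and 4 in macrophages. The shares of all genes were then 45.2%, 46.1%, 30.4% and 33.1%, and 22.6%, 29.5%, 18.1% and 28.6%.

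Leaving out single libraries, member counts ranged from 1 to 3, 4 to 6 and 6 to 7 in hepatocytes (RevDKO against Control, RevScapTKO against RevDKO, RevScapTKO against Control) and from 0 to 2, 2 to 2 and 1 to 2 in macrophages. Those of other glycerolipid genes ranged from 2 to 3, 6 to 11 and 8 to 10, and from 0 to 0, 3 to 5 and 2 to 5. The changed rhythm count stayed at 1 for RevDKO against Control in hepatocytes and at 0 elsewhere. By time, counts ranged from 0 to 0, 0 to 1, 0 to 0 and 0 to 1 for RevDKO against Control at ZT4, ZT10, ZT16 and ZT22 and from 1 to 3, 0 to 1, 1 to 2 and 2 to 3 for RevScapTKO against RevDKO. Libraries that moved the ZT10 counts from 0 to 1 were Control ZT22 replicate 1 and RevScapTKO ZT4 replicates 1 and 2 in the first, and Control ZT4 replicate 1 and RevScapTKO ZT4 replicates 1 and 2 in the second, and RevScapTKO ZT4 replicate 1 moved the ZT4 count to 3. Rhythmic counts ranged from 3 to 7, 5 to 7, 2 to 5 and 1 to 2 in hepatocytes and from 2 to 5, 2 to 5, 2 to 3 and 0 to 5 in macrophages. Depth is unknown, so what it limits could not be given.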
